A study of Mus musculus with 9 samples.

Results

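Taste receptors and trace amine-associated receptors are chemoreceptors of the nose and mouth that are neither odorant nor vomeronasal receptors. Their genes were followed here in olfactory mucosa, the tissue of the nose where olfactory neurons lie. Members were all genes whose annotated symbol begins with Tas1r, Tas2r or Taar. There were 44 such genes among 19084 named genes and 23631 features tested: 3 Tas1r, 34 Tas2r and 7 Taar genes, each with 1 probe. RefSeq's mouse gene table lists 53 protein-coding genes of these families; Tas2r110, Taar7a, Taar7b, Taar7d, Taar7e, Taar7f, Taar8a, Taar8b and Taar8c were not analysed here.

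Total RNA of 9 samples was measured on 1-colour arrays, 3 in each of 3 groups of male wild-type C57BL/6 mice aged 6 to 8 weeks. WK2 mice had dexamethasone, a synthetic glucocorticoid, by intraperitoneal injection every day for 2 weeks at 1 mg/kg. D1 mice had dexamethasone for 1 day, with no separate dose stated, and Control mice had saline for 2 weeks, so D1 and Control also differed in how long injections went on. Each group held 9 mice of 27, and samples were taken to arrays for their optimal Omp, the marker of mature olfactory neurons, so the level of Omp was part of the selection. The labels do not say that the samples of a group were separate animals, so p-values here reflect sample-to-sample spread that may be technical. Array medians were 1202 to 1447 and Pearson's r across features was 0.977 to 0.993 between arrays of 1 group; features are not independent replicates, and the number of arrays limits the precision.

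Taste receptors are G protein-coupled receptors. Tas1r3 pairs with Tas1r2 to form the sweet receptor and with Tas1r1 to form the umami receptor, while Tas2r genes encode bitter receptors. In taste cells, and in solitary chemosensory cells of the airway that detect irritants, they signal through gustducin (Gnat3), phospholipase C (Plcb2) and the cation channel Trpm5. Trace amine-associated receptors detect volatile amines: all but Taar1 serve as olfactory receptors, each in a small set of olfactory neurons that signal through Gnal, Adcy3 and Cnga2, whereas Taar1 is a receptor for trace amines studied mainly in the brain. Mouse Taar5 responds to trimethylamine and Taar4 to phenylethylamine. Most genes of these families have their coding sequence in 1 stretch and lie in gene clusters. These are the Taar genes on chromosome 10 and most of the 32 Tas2r genes on chromosome 6. Tas2r134 lies on chromosome 2 and Tas2r119 on chromosome 15. The Tas1r genes are on chromosome 4, with Tas1r2 apart from Tas1r1 and Tas1r3.

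RefSeq promoter windows (GRCm38.p6), 250 bases before to 50 after the annotated start, matched 38 of the 44 genes. In 33 of the 38 the annotated start is itself an ATG, against 5.83% of all 32851 windows, so for most of these genes the window ends inside coding sequence and the true transcription start is not placed. The windows below belong to the gene that passed the test (Tas2r126), the gene with the largest difference between WK2 and Control (Taar5), and one of the brightest bitter receptor genes (Tas2r131). Each is written 5′ to 3′ on the gene's strand, and capitals mark AGAACA on either strand, the 6-letter monomer of the DNA site of the glucocorticoid receptor.
Tas2r126, chr6:42434285-42434584, plus strand: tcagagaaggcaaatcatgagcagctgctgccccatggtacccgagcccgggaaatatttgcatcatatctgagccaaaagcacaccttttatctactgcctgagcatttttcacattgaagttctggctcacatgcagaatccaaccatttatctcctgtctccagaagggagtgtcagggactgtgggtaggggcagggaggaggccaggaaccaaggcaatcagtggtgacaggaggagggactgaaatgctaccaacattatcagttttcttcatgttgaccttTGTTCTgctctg
Taar5, chr10:23970456-23970755, plus strand: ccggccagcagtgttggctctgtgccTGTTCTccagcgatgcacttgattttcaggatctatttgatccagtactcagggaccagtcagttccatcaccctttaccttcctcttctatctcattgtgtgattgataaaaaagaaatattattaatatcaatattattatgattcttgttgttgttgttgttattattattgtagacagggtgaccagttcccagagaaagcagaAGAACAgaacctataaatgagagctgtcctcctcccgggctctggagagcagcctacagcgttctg
Tas2r131, chr6:132957795-132958094, minus strand: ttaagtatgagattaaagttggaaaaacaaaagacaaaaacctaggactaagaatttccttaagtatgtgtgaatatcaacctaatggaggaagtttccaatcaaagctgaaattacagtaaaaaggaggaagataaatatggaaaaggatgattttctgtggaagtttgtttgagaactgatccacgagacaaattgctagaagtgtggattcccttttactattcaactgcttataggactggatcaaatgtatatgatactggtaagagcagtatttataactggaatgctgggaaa
The single match in Tas2r126 lies after the annotated start, Taar5 holds 1 match in each orientation before its start, and the Tas2r131 window holds none.

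AGAACA on either strand was found in 17 of the 38 windows (44.7%). These were 13 of 30 Tas2r, 2 of 5 Taar and 2 of 3 Tas1r windows. Of all windows 19.0% held it, and of the 1915 windows whose annotated start is an ATG 28.3%. The complete palindromic glucocorticoid response element, which contains the monomer on both strands around a spacer of any 3 letters, was in 0 of 38 member windows and in 3 of all windows. CCCNNGGG, the letters bound by Ebf factors of olfactory neurons, was in 0 of 38. It was in 13.7% of all windows and 5.90% of those whose annotated start is an ATG. The homeodomain site TAATTA was in 5 of 38 (Tas2r108, Tas2r120, Tas2r140, Tas2r143 and Tas2r144), against 5.29% and 11.9%. The member windows were poor in G and C, with a median GC content of 37.8%. The median was 52.7% for all windows and 39.7% for those whose annotated start is an ATG. A match is a description of letters and does not show that a factor binds.

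Most receptor probes were dim. The mean intensity over 9 arrays ran from 12.7 for Tas2r106 to 3388 for Tas2r116, with a median of 238, and 40 of 44 members lay below the median feature (1536). By family the medians were 482 for Tas1r, 149 for Tas2r and 394 for Taar genes, against 603 for 550 odorant receptor genes (Olfr) and 219 for 48 vomeronasal receptor genes (Vmn). A list of 23 genes of tissues that the sample should lack, such as liver, pancreatic islet, testis and pituitary, had a median of 233 and reached 1864 for Ins2. By that yardstick 23 of 44 members were above its median, and 4 were above its highest gene: Tas2r116, Tas2r107, Tas2r131 and Taar1. Brightness differs between probes for reasons other than abundance, so it does not order the genes by expression, and the file gives no detection calls.

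The first comparison addresses the effect of 2 weeks of daily dexamethasone. In these arrays 41 of 44 receptor genes had a higher mean in WK2 than in Control, on the scale of log2(intensity + 50), but only 1, Tas2r126, passed the test. The median log2 difference was 0.47 over the Tas1r genes, 0.33 over the Tas2r genes and 0.40 over the Taar genes, against 0.14 over all features and 0.24 over 9939 other features of like brightness. Without Control replicate 2 the family medians were 0.34 for Tas1r, 0.19 for Tas2r and 0.30 for Taar genes, and without WK2 replicate 3 the Taar median was 0.24. The odorant receptor genes had a median of 0.28, the vomeronasal receptor genes 0.34 and the genes of absent tissues 0.27. The share of members higher in WK2 was 93.2%, beside 62.7% of all features and 76.6% of those of like brightness. Of the vomeronasal receptor genes 87.5% were higher, and of the odorant receptor genes 80.7%.

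The test was limma's linear model over all 9 arrays, two-sided, with Benjamini-Hochberg adjustment over 23631 features and a threshold of 0.05. It called 1.61% of all features, 0.432% as higher and 1.18% as lower, and 1 of 44 members. At an unadjusted p under 0.05 it called 16 members (36.4%), all higher in WK2. Of all features 29.7% were called in either direction and 17.3% as higher. Of the 9939 features of like brightness 25.8% were called in either direction, with 2083 as higher. Of the 23 genes of absent tissues 34.8% were called, all higher. WK2 and Control arrays did not overlap, with WK2 higher, for 23 of 44 members (52.3%), against 23.8% of all features and 32.2% of those of like brightness. Among the genes of absent tissues the share was 43.5%, among the vomeronasal receptor genes 31.25% and among the odorant receptor genes 26.9%. No member was lower in all WK2 arrays than in all Control arrays, against 13.8% of all features. An exact permutation test of 3 arrays against 3 cannot give a p under 0.1, so no single gene can pass by that test alone. In bulk tissue, fewer or more cells of a type and less or more RNA per cell cannot be told apart.

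**Figure D1:**
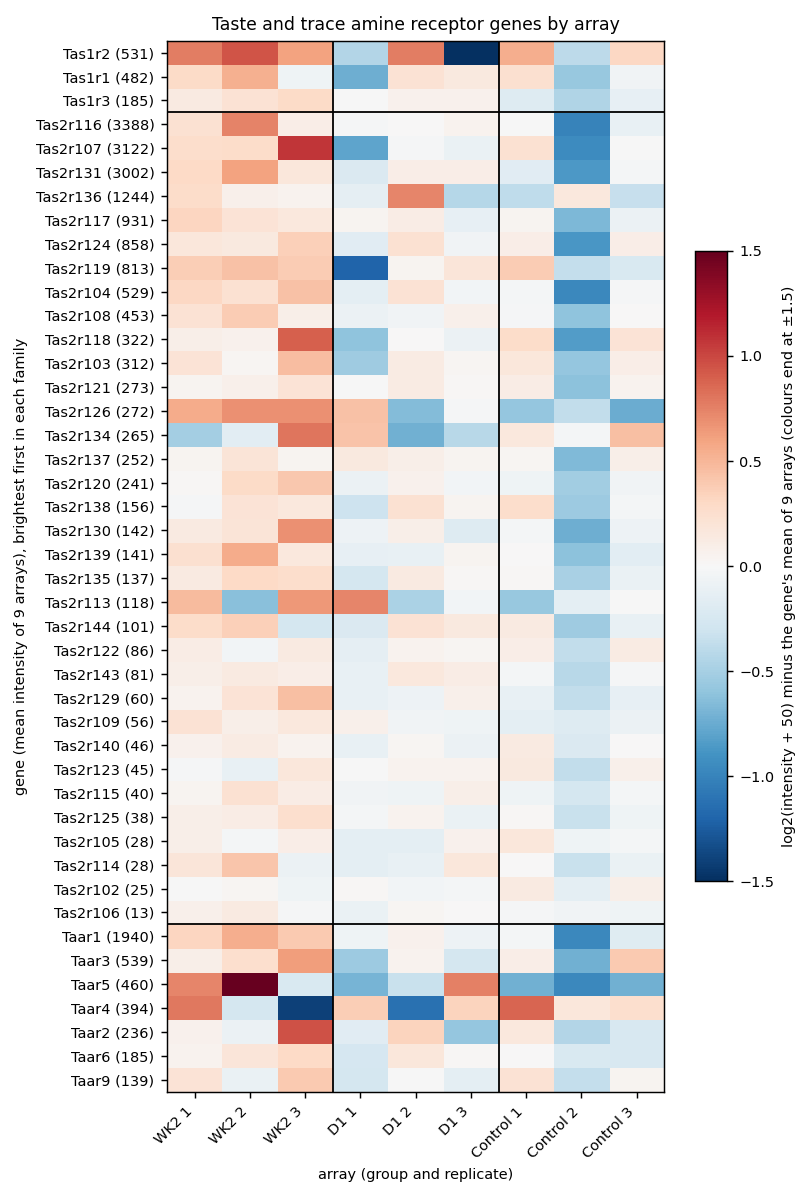
Each row is a gene, with its mean intensity in brackets, and each column an array; colour gives log2(intensity + 50) minus the gene's mean over 9 arrays, red above and blue below. The column of Control replicate 2 is blue for most genes, and the WK2 columns are mostly red.

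The members' values moved together by array. Control replicate 2 gave the lowest value for 32 of 44 members (72.7%), including 27 of 34 Tas2r genes, against 50.8% of features of like brightness and 32.3% of all features. The highest value was on WK2 replicate 3 for 19 members and on WK2 replicate 2 for 15. The members' median deviation from their own means was 0.16, 0.20 and 0.19 on the WK2 arrays, -0.12, 0.05 and 0.01 on the D1 arrays, and 0.02, -0.44 and -0.03 on the Control arrays. On Control replicate 2 the features of like brightness stood at -0.30, the vomeronasal receptor genes at -0.49 and the genes of absent tissues at -0.45, while features brighter than 6400 stood at 0.05. Without that array the members' median difference between WK2 and Control was 0.22, with 37 of 44 higher. The median was then 0.08 over all features and 0.13 over those of like brightness, of which 69.2% were higher. In that fit 0 members passed the test. Values without Control replicate 2 are given below for some single genes, and the differences of the others include it. Among the others are Tas2r139, Tas2r129 and Tas1r3, for which Control replicate 2 was the lowest array.

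**Figure D2:**
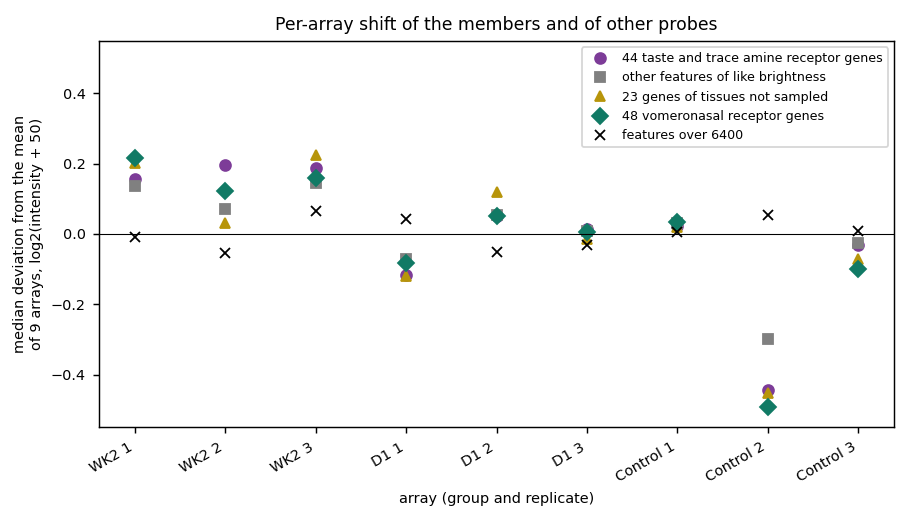
Points give the median deviation of 5 sets of probes from their means over 9 arrays, on the log2(intensity + 50) scale, for each array. On Control replicate 2 the receptor genes (-0.44), vomeronasal receptor genes (-0.49) and genes of absent tissues (-0.45) dipped alike, and the features over 6400 (0.05) did not.

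Because dim probes as a whole read higher in WK2, each member was also set beside the 200 other features nearest to it in brightness. Of 44 members, 34 lay above the median of their neighbours, and the median excess was 0.13 on the log2 scale (0.19 for Tas1r, 0.13 for Tas2r and 0.13 for Taar genes). Quantile normalization, which gives every array the same distribution of values, left a median of 0.17 over the members, with 35 of 44 higher, where features of like brightness had a median of 0.02. Cyclic loess gave 0.20 with 35 of 44 higher, where features of like brightness had a median of 0.05. With cyclic loess 53.4% of all features and 56.8% of those of like brightness were higher. With quantile normalization these shares were 51.1% and 53.0%. The fits of this paragraph include Control replicate 2. The size of the common difference therefore depended on the scaling, and most members were on the higher side under each scaling run.

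**Figure D3:**
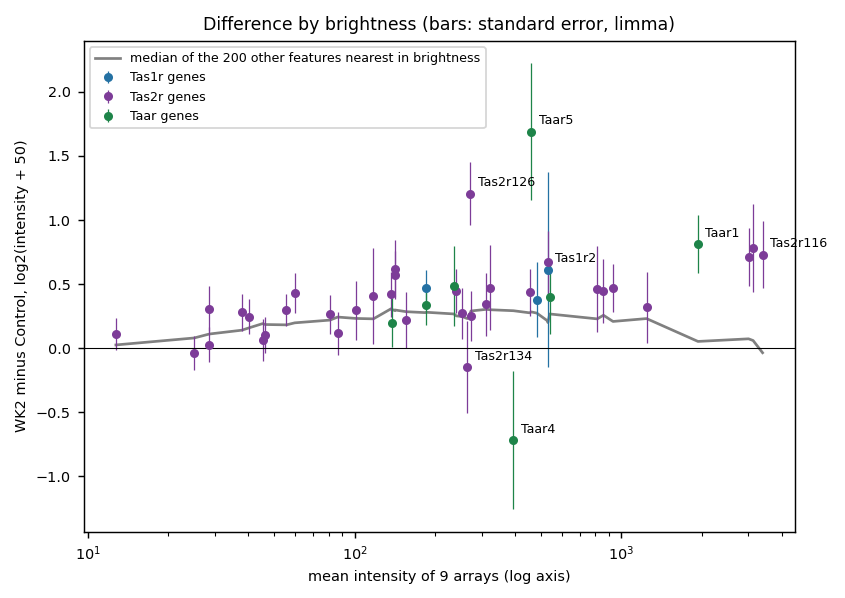
The difference between WK2 and Control on the log2(intensity + 50) scale (vertical, bars are limma standard errors) is plotted against mean intensity (horizontal, log axis) for the 44 genes; the grey line is the median of each gene's 200 neighbours in brightness. Taar5 (1.69) and Tas2r126 (1.21) stand highest and Taar4 (-0.72) lowest.

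Tas2r126 is a bitter receptor gene that lies beside Tas2r135 and Tas2r143 on chromosome 6. Its intensity was 389, 428 and 429.8 on the WK2 arrays, 355, 139.9 and 246 on the D1 arrays, and 149, 181 and 128 on the Control arrays. All WK2 arrays were above all others, and of the D1 arrays 1 fell in the Control range and the others between the groups. The log2 difference between WK2 and Control was 1.21 ± 0.25 (SE), a 2.31-fold difference on that scale, with a limma adjusted p of 0.0489. The call is at the edge of the threshold: the adjusted p was 0.0787 with quantile normalization, 0.0764 with cyclic loess, 0.0861 without Control replicate 2 and 0.148 without Control replicate 3. The difference itself was 1.30 without Control replicate 2, which was the highest Control array for this gene. Its neighbours Tas2r135 and Tas2r143 differed by 0.42 and 0.26, and neither passed the test.

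The brightest bitter receptor probes were also higher in WK2 without passing. Tas2r131, a bitter receptor known from a subset of taste cells and from solitary chemosensory cells of the mouse nose, had intensities of 3587, 4423 and 3283 in WK2, 2486, 3124 and 3120.3 in D1, and 2579, 1572 and 2847 in Control. Tas2r116 had 3811, 5485 and 3496 in WK2, 3204, 3277 and 3379 in D1, and 3230.0, 1602 and 3012 in Control. For both genes every WK2 array was above every Control array, and Control replicate 2 was the lowest of the 9. Tas2r131 differed by 0.71 ± 0.23 (SE; adjusted p 0.0901, limma) and Tas2r116 by 0.73 ± 0.26 (adjusted p 0.112); without Control replicate 2 these differences were 0.46 and 0.42.

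Tas2r107 stood at 3488, 3521 and 6137 in WK2, 1654, 2853 and 2683 in D1, and 3407, 1482 and 2875 in Control, and differed by 0.78 ± 0.34 between WK2 and Control, or 0.43 without Control replicate 2. Its WK2 mean rests in part on replicate 3, and the lowest WK2 array was only just above the highest Control array. Tas2r136 averaged 1327 ± 118 in WK2, 1336 ± 614 in D1 and 1069 ± 248 in Control (SD, n = 3 each), with overlapping groups. Among dimmer genes with small p, Tas2r139 averaged 185 ± 36.0 in WK2, 129 ± 11.3 in D1 and 109.6 ± 33.7 in Control and differed by 0.57 between WK2 and Control (adjusted p 0.0935, limma). Tas2r129 averaged 78.3 ± 18.1 in WK2, 55.9 ± 7.68 in D1 and 44.9 ± 9.202 in Control, with WK2 arrays all above Control arrays (difference 0.43, adjusted p 0.111, limma). Neither passed.

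Bitter receptors with well known ligands gave no call. Tas2r108, which responds to denatonium, averaged 533 ± 59.7 in WK2, 440.1 ± 30.9 in D1 and 387 ± 97.1 in Control, and every WK2 array was above every Control array (difference 0.43, or 0.24 without Control replicate 2). Tas2r105, the cycloheximide receptor, was near the bottom of the range at 31.2 ± 3.83 in WK2, 24.5 ± 6.305 in D1 and 29.9 ± 7.13 in Control, with overlapping groups (difference 0.03, or -0.02 without Control replicate 2). Tas2r138, the counterpart of the human receptor for phenylthiocarbamide, averaged 171 ± 17.5 in WK2, 154 ± 37.3 in D1 and 144 ± 52.5 in Control (difference 0.22, or -0.0025 without Control replicate 2). These 3 genes were picked for their ligands after values were seen. The dimmest probe, of Tas2r106, averaged 15.6 ± 3.34 in WK2, 11.9 ± 2.88 in D1 and 10.7 ± 0.91 in Control. Tas2r102 averaged 24.3 ± 2.52 in WK2, 24.2 ± 1.69 in D1 and 26.6 ± 7.78 in Control. These are levels at which the added 50 holds any log2 difference close to 0.

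Over all 34 Tas2r genes the differences between WK2 and Control ran from -0.15 for Tas2r134 to 1.21 for Tas2r126. Apart from Tas2r134, Tas2r102 (-0.04) was below 0. The larger gene clusters had near medians: the run of 8 genes on chromosome 6 that ends with Tas2r126 had a median of 0.36, and the run of 23 genes between Tas2r130 and Tas2r140 had 0.32. Genes of a family can share sequence and their probes can share signal, so the 34 genes are not 34 independent measurements.

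Among the Taar genes, Taar1 was the brightest. It measured 2344, 2757 and 2464 in WK2, 1779, 1948 and 1767 in D1, and 1831, 928 and 1640.1 in Control. All WK2 arrays were above all others, and the D1 arrays fell within a narrow range close to the upper Control arrays. Taar1 differed by 0.81 ± 0.23 between WK2 and Control and missed the threshold (adjusted p 0.0699, limma); without Control replicate 2 the difference was 0.53. Its probe was brighter than that of any gene of absent tissues by only a small margin, with a mean of 1940 against 1864 for Ins2.

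Taar5, the trimethylamine receptor, had intensities of 595, 1686 and 281 in WK2, 189.7, 259 and 608 in D1, and 186, 148 and 186 in Control. Every dexamethasone array was above every Control array, but the WK2 arrays differed several-fold among themselves, with replicate 2 far above the others. The log2 difference of 1.69 ± 0.54 was the largest of the 44 and did not pass (adjusted p 0.0876, limma). It was 1.05 without WK2 replicate 2 and 2.25 without WK2 replicate 3.

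Taar4, the phenylethylamine receptor, went the other way on average, at 634, 281 and 100.2 in WK2, 461, 132 and 449 in D1, and 673, 395 and 423 in Control. The groups overlapped, and the difference of -0.72 ± 0.54 did not pass (adjusted p 0.368, limma). It was -0.17 without WK2 replicate 3, the array on which Taar4 was lowest, and -1.26 without WK2 replicate 1. Taar4 was the only Taar gene with a lower mean in WK2 than in Control.

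Taar3 averaged 668 ± 143 in WK2, 434 ± 101 in D1 and 516 ± 204 in Control. Taar2 averaged 306 ± 149 in WK2, 205 ± 80.8 in D1 and 195 ± 53.3 in Control. Taar6 averaged 215 ± 22.0 in WK2, 181 ± 33.1 in D1 and 160.1 ± 20.4 in Control. All 3 are olfactory receptors for amines, and of them only Taar6 had WK2 arrays that were all above the Control arrays. Taar9, the dimmest of the family, averaged 161 ± 35.1 in WK2, 119.8 ± 15.1 in D1 and 135 ± 35.8 in Control. The differences between WK2 and Control were 0.40 for Taar3, 0.49 for Taar2, 0.34 for Taar6 and 0.20 for Taar9. None passed; Taar3 lay at -0.03 with array weights and Taar9 at -0.06 with quantile normalization. Without WK2 replicate 3, where Taar2 reached 478, its difference was 0.16, and without Control replicate 2 Taar3 stood at 0.07 and Taar9 at 0.04.

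**Figure D4:**
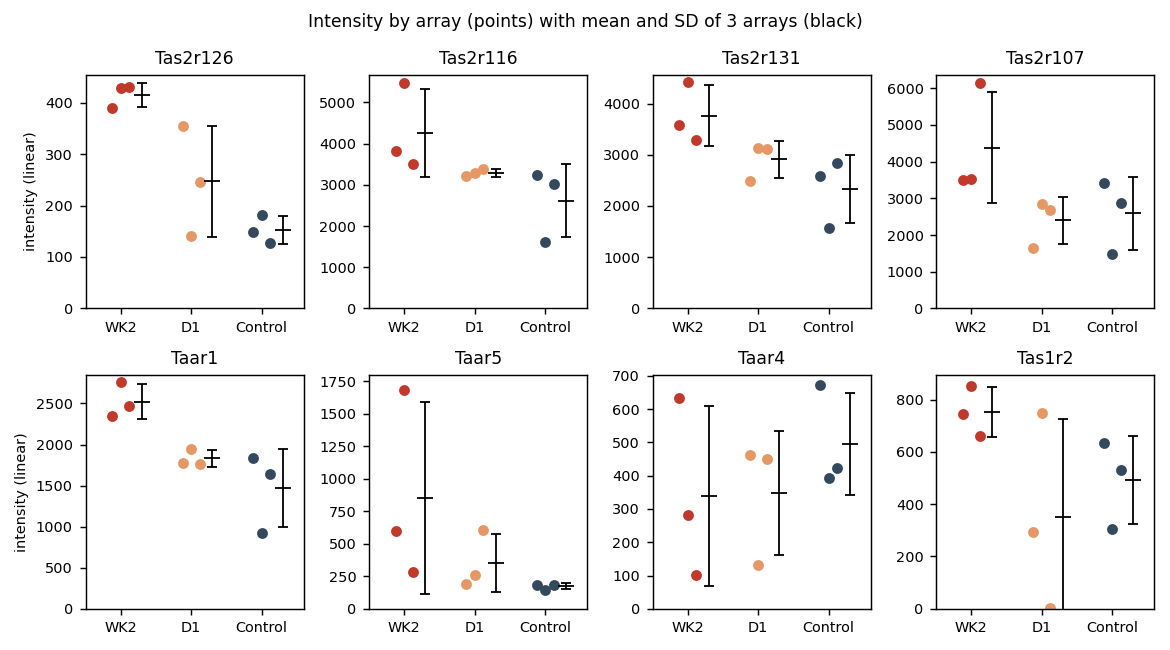
Points are the linear intensities of 8 receptor genes on the arrays of each group, and black marks give the mean and SD of 3 arrays; each axis starts at 0, and the SD bar of Tas1r2 in D1 would extend below it. Tas2r126 and Taar1 have all WK2 arrays above all others, Taar5 and Taar4 vary widely among the WK2 arrays, and Tas1r2 has 1 D1 array near 0.

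The sweet and umami receptor genes gave no call. Tas1r3, the shared subunit, measured 205, 219 and 234 in WK2, 181, 192 and 193 in D1, and 154, 119.9 and 163 in Control. The 3 groups did not overlap, in the order WK2, D1, Control. The difference between WK2 and Control was 0.47 ± 0.14 (adjusted p 0.0786, limma), from a probe near the brightness of the absent-tissue genes. Tas1r2, the sweet subunit, measured 745, 851 and 659 in WK2, 295, 749.6 and 4.70 in D1, and 636, 306 and 530.4 in Control. The WK2 arrays were just above the Control arrays, and D1 replicate 3 was almost without signal. Its difference between WK2 and Control was 0.61 ± 0.76, or 0.34 without Control replicate 2. Tas1r1, the umami subunit, averaged 571 ± 126 in WK2, 442 ± 159 in D1 and 434 ± 131 in Control, with overlapping groups and a difference of 0.38; without Control replicate 2 it was 0.16.

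Some receptor genes varied more between arrays of 1 group than the median probe of their brightness did. The within-group SD on the log2 scale was over 2 times the median of the 200 neighbours for 4 members, at 4.30 times for Tas1r2, 3.06 for Taar4, 2.80 for Taar5 and 2.62 for Tas2r113. The median ratio was 1.18 over the 44 members, 1.07 over the Tas2r genes and 1.48 over the Taar genes. The Taar genes' median within-group SD was 0.41, beside 0.31 for the odorant receptor genes, 0.24 for the Tas2r genes and 0.25 for all features. No test of these spreads was made. The share of other features over 2 times their neighbours' median was not counted, so the count does not set the members apart.

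After 1 day of dexamethasone, compared with Control, no receptor gene passed. The limma test called 0% of all features and 0 of 44 members, and at an unadjusted p under 0.05 it still called 0 members, against 2% of all features. The smallest adjusted p of any member was 1.00. The median difference was 0.13 over the members, beside 0.03 over all features and 0.09 over those of like brightness, and 32 of 44 were higher in D1, or 72.7%, where 56.6% of all features and 70.4% of those of like brightness were. D1 arrays were all above the Control arrays for 3 members (Tas1r3, Tas2r109 and Taar5), or 6.82%, near the background of 4.92%, and 0 members had all D1 arrays below the Control arrays, against 5.19%. Without Control replicate 2 the members' median was 0.00 and 23 of 44 were higher.

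The largest D1 values were those of single arrays. Tas1r2 differed by -1.08 ± 0.76 between D1 and Control, and by 0.01 without D1 replicate 3. Taar5 differed by 0.71 ± 0.54, and by 0.29 without D1 replicate 3. Taar4 differed by -0.57 ± 0.54, and by -0.08 without D1 replicate 2. Of the bitter receptor genes, Tas2r126 differed by 0.49, or 0.23 without D1 replicate 1, Tas2r116 by 0.39, Tas2r131 by 0.35 and Tas2r104 by 0.35, and of the others Taar1 by 0.37, Tas1r3 by 0.29, Taar6 by 0.13 and Tas1r1 by 0.00. Without Control replicate 2 the values were 0.07 for Tas2r116, 0.09 for Tas2r131, 0.04 for Tas2r104 and 0.08 for Taar1.

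The comparison of WK2 with D1 sets the longer course against the shorter. It does not use the Control arrays for its difference, though it shares the WK2 arrays with the first comparison and the D1 arrays with the second. The limma test called 0.0931% of all features, 0.0296% as higher and 0.0635% as lower, and 0 of 44 members. At an unadjusted p under 0.05 it called 3 members, all higher in WK2: Tas2r126, Tas2r107 and Tas1r2, or 6.82%, against 8.96% of all features called higher. Of the members 41 of 44 were higher in WK2 (93.2%), against 61.6% of all features, with a median of 0.24, beside 0.10 over all features and 0.15 over those of like brightness, of which 72.4% were higher. The odorant receptor genes had a larger median, 0.32, with 89.5% higher, and the vomeronasal receptor genes the same median of 0.24, with 85.4% higher. WK2 arrays were all above the D1 arrays for 18 members (40.9%), against 18.7% of all features and 22.3% of those of like brightness. Among the genes of absent tissues the share was 30.4%. Set beside their 200 neighbours, 32 of 44 members lay above, by a median of 0.09.

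Tas2r126 differed by 0.72 ± 0.25 between WK2 and D1 (adjusted p 0.190, limma), or 0.43 without D1 replicate 2, Tas2r107 by 0.84 ± 0.34 (adjusted p 0.232), Tas2r119 by 0.72 and Tas2r139 by 0.38. The value of Tas2r119 rests on D1 replicate 1 and was 0.28 without it. Of the Taar genes, Taar5 differed by 0.98, or 0.34 without WK2 replicate 2, Taar3 by 0.57, Taar1 by 0.45 and Taar9 by 0.30. Tas1r2 differed by 1.69 ± 0.76 (adjusted p 0.260, limma), or 0.60 without D1 replicate 3, Tas1r1 by 0.37, or 0.07 without D1 replicate 1, and Tas1r3 by 0.17. The means stood in the order WK2, D1, Control on the log2 scale for 30 of 44 members: 24 of 34 Tas2r, 4 of 7 Taar and 2 of 3 Tas1r genes. The share of other features in that order was not counted, so this count does not set the members apart. Of the features of like brightness 70.4% were higher in D1 than in Control and 72.4% higher in WK2 than in D1.

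Genes that carry taste signals did not share 1 direction. Of 15 genes of the taste transduction list 14 were measured, 0 passed the test in any comparison, and their median difference between WK2 and Control was 0.14, the same as over all features. Gnb3, a G protein beta subunit of taste cells, averaged 9579 ± 1573 in WK2, 6426 ± 1920.4 in D1 and 4884 ± 1378 in Control (difference between WK2 and Control 1.00, adjusted p 0.0683, limma). Gnat3 differed by 0.29, Trpm5 by 0.35, Plcb2 by 0.10 and Gng13 by 0.52. Gnai2, an inhibitory G protein subunit, differed by -0.77, Itpr3, the calcium release channel, by -0.82, and Pou2f3, the transcription factor that specifies chemosensory and tuft cells, by -0.38, at 729.9 ± 15.1 in WK2, 858 ± 39.0 in D1 and 964 ± 48.4 in Control (adjusted p 0.0945, limma). Of 21 tuft and solitary chemosensory cell markers 19 were measured, 11 higher and 8 lower in WK2 than in Control. Their median was 0.03 with 0 calls, and Spib (-1.37) and Dclk1 (-0.66) had the smallest p. The 8 measured of 9 taste bud markers had a median of 0.11 and 0 calls.

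The pathway of olfactory Taar neurons was split as well. Of 16 odorant transduction genes 0 passed in any comparison, and the median difference between WK2 and Control was -0.04: Gnal differed by -0.44, Adcy3 by -0.58 and Pde4a by -0.70, while Cnga2 stood at 0.18 and Gng13 at 0.52. Omp, on which samples were selected, averaged 506735 ± 30934 in WK2, 408864 ± 79361 in D1 and 337461 ± 64145 in Control, a difference of 0.60 between WK2 and Control that did not pass (adjusted p 0.0854, limma). The 14 mature neuron markers had a median of 0.16 and 0 calls. Mean Omp stood in the order WK2, D1, Control, and its part in the receptor values was not tested. Between D1 and Control the mature neuron markers had a median of -0.10, with 3 higher and 11 lower.

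Of 9 genes listed as chaperones of chemoreceptors, 1 was called higher in WK2 than in Control, where 0.432% of all features were called higher. Hspa5, the chaperone BiP of the endoplasmic reticulum, averaged 115431 ± 25269.9 in WK2, 59144 ± 2546 in D1 and 60734 ± 9620.2 in Control (difference between WK2 and Control 0.92, adjusted p 0.0494, limma). Hspa5 lost its call in 13 of 23 alternatives, with adjusted p up to 0.148. Rtp3, a receptor transporting protein, differed by 1.33 (adjusted p 0.0747) and Reep1 by -0.72 (adjusted p 0.0551), and neither passed. Of 16 enzymes that make or break down amines 13 were measured and 0 passed, with 8 higher and 5 lower in WK2 and a median of 0.31, between -0.37 and 0.78. By smallest p, Hdc, which makes histamine, differed by 0.78, Inmt, an amine methyltransferase, by 0.54, Sat1 by 0.39 and Ddc, which makes several trace amines, by 0.38.

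Markers of other cells gave 2 calls between WK2 and Control, where 1.18% of all features were called lower. Dpysl5, of immature neurons, fell by 1.26 (adjusted p 0.0398, limma), 1 of 11 in its list with a median of -0.23, and Trpc2, the channel of vomeronasal neurons, fell by 1.24 (adjusted p 0.0493), 1 of 5. Dpysl5 lost its call in 11 of 23 alternatives and Trpc2 in 13 of 22, each with adjusted p up to 0.148. Sustentacular and gland markers (8 of 9 measured) had a median of 0.25, motile ciliated cell markers (11 measured) 0.41, and the genes of absent tissues 0.27, each with 0 calls. Among the last, Prl differed by 1.27, Fga by 0.93, Slc12a1 by 0.65 and Alb by 0.64, differences as large as those of most receptor genes. The part of these cell types in the receptor values was not tested.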

How the data were processed

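The authors deposited 1 table of intensity values on a linear scale, for 26423 probes and 9 arrays; between 8 and 18 probes per array were below 0. RNA was amplified and labelled with Cy5 per the labels' protocols; scanner, software, scaling, batches and dates are each not given in the sources used here. Probes were named through the platform annotation (21876 named, 4547 not), updated by gene ID through RefSeq's table for GRCm38.p6, and the brightest probe by mean stood for a gene. Array medians spanned 0.27 on the log2 scale, under the limit of 0.5, so values were not normalized further.

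Values were tested as log2(intensity + 50), a scale that understates changes of dim genes, with limma 3.58.1 in R 4.3.3 (lmFit and eBayes) over all 9 arrays. P-values were adjusted by the Benjamini-Hochberg method over 23631 features within each comparison. The script was tested on simulated data. Features of like brightness are other features with means between 38.5 and 1150.3, the 10th to 90th percentile of the members. Replicate numbers are not stated to pair samples, so they were not used as pairs. Deviations of same-numbered arrays had r between -0.28 and 0.14. Between arrays of different number and group r was -0.34 to 0.31, so these values cannot decide whether numbers pair samples.

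Named were members called, the 4 Tas2r and 4 Taar genes with the smallest p in each comparison, the 4 brightest and 2 dimmest Tas2r genes, all Tas1r and Taar genes, and list genes called or with the smallest p; any other was picked with values in view. The members and gene lists were chosen with earlier results of these data known. Alternatives were 4 scalings or weightings, 2 filters on dim features, averaging the probes of a gene, pseudocounts of 16 and 500, trend and robust moderation, the replicate block, a fit of the 2 groups compared, a threshold of 0.1 and leaving out each array; leaving out both Control replicate 2 and D1 replicate 1 was chosen after seeing the data. Promoter windows and their coordinates come from RefSeq.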

Additional observations from a re-analysis of the deposited data

How the results depend on the processing

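Between WK2 and Control, the count of receptor genes called was 1, Tas2r126. It became 0 with quantile normalization, cyclic loess, a pseudocount of 16, the replicate block and the fit of the 2 groups compared. Without both Control replicate 2 and D1 replicate 1 it was also 0. The filter on the dimmest 25% of features removed Tas2r126 itself, and 0 of the 17 members left passed. The filter on the dimmest 50% also removed Tas2r126, and 1 of the 4 members left passed, Taar1 (adjusted p 0.0487, limma). Of the 11816 features left, 1135 passed. With array weights the count was 3 of 44 (Tas2r126, Taar1 and Taar5), beside 2738 of 23631 features. At an adjusted p under 0.1 it was 6 of 44, beside 3597 of 23631 features. With array weights and at that threshold the members' share was below that of all features. The count was 0 to 1 when 1 array was left out. Tas2r126 lost its call in 14 of 21 alternatives, with adjusted p between 0.0164 and 0.148 (limma). With the replicate block, whose numbers are not stated to pair the samples, its adjusted p was 0.105 (limma). The call at a pseudocount of 500 or with median centring (adjusted p 0.0486 and 0.0451) was as close to the threshold. In D1 against Control and WK2 against D1 the count was 0 under each of 23 alternatives. The Tas2r median between WK2 and Control was 0.15 with quantile normalization, 0.11 with a pseudocount of 500 and 0.73 among the few genes above the dimmest 50%. Above the dimmest 50% the Tas2r median between D1 and Control was 0.35, and above the dimmest 25% the Tas1r median was -0.54 between D1 and Control and 1.03 between WK2 and D1, over 2 genes. No Tas1r gene was left above the dimmest 50%. Signs turned for Tas1r1 between D1 and Control (-0.12 with quantile normalization, -0.049 with median centring, -0.10 with cyclic loess, -0.052 with array weights, and -0.22 to 0.31 when 1 array was left out, lowest without Control replicate 2), for Tas1r2 in that comparison (-1.92 to 0.010 when 1 array was left out, highest without D1 replicate 3), and between WK2 and Control for Taar3 (-0.035 with array weights) Taar9 (-0.061 with quantile normalization and -0.00097 with cyclic loess), Tas2r105 (-0.091 with quantile normalization, -0.075 with median centring, -0.14 with cyclic loess, -0.00095 with array weights, -0.021 without both arrays, and -0.021 to 0.098 when 1 array was left out) and Tas2r138 (-0.045 with quantile normalization, -0.00028 with array weights, -0.0025 without both arrays, and -0.0025 to 0.40 when 1 array was left out). Over all features the calls between WK2 and Control, 380 in the fit reported (102 higher, 278 lower), were 1419 with quantile normalization, 1545 with median centring (221 higher, 1324 lower), 682 with cyclic loess, 2738 with array weights, 576 and 1135 above the dimmest 25% and 50%, 777 and 131 with pseudocounts of 500 and 16, 3597 at an adjusted p under 0.1, 1 with the replicate block, 0 in the fit of the 2 groups, and 1 to 953 when 1 array was left out. Between WK2 and D1 they were 22 (7 higher, 15 lower), 75 with quantile normalization (15 higher, 60 lower), 50 with median centring (10 higher, 40 lower), 134 with array weights, and 0 without both Control replicate 2 and D1 replicate 1. The causes were not tested. Dim signal limits 40 of 44 members, which lay below the median feature.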
